A study of Polistes dominula with 96 samples.

Results

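LOC107074200 is annotated in the paper wasp *Polistes dominula* as 26S proteasome non-ATPase regulatory subunit 9 and was 1 of 11140 genes counted in this series of brain RNA-sequencing libraries. It was selected on its measured counts, which were high in control workers, low in queens and reduced again after queen loss, and its relation with age was part of that choice. The levels in those groups and the relation with age are therefore described without a test, and only measures that the choice did not use were tested. Among these, the trait queenness, explained further on, is correlated with age, so its test is not free of the choice. Queenness combines the ovarian index and a dominance rating, so the tests of these traits are not taken as free of it either.

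The proteasome is the barrel-shaped protease that degrades proteins marked with ubiquitin. Its core particle is built from rings of alpha and beta subunits, and the regulatory particle that caps it holds a base of ATPases, which unfold the substrate, and a set of non-ATPase subunits, which bind and strip ubiquitin. Despite the name, subunit 9 is not a part of the finished enzyme in yeast and mammals, where it is called Nas2 and p27. There it is a chaperone with a PDZ domain that holds the ATPase Rpt5 while the base is assembled. Its role in wasps is taken here from the product name only.

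The 96 libraries were brains of single females from early-season nests kept in the lab, without subordinate foundresses. They comprised 26 queens, 12 workers of control nests (sham treatment, queen present), 24 individuals sampled on day 3 after the queen was removed and 34 sampled on day 12. Those of day 3 belonged to 8 nests and those of day 12 to 10, so that nestmates share their colony, while the 12 control workers came from 12 nests. Of the queens, 14 were from control nests and 12 had been taken from queen removal nests. The queens were overwintered foundresses, months old against days or weeks for the other wasps, so that caste and age cannot be told apart between queens and workers. Ages of the others ran from 1 to 23 days in control workers (median 11.5), from 3 to 33 days at day 3 (median 13) and from 3 to 28 days at day 12 (median 18.5). Libraries held 7933671 to 18124755 counts, with lower totals in queens (median 10437136) than in control workers (median 13212068). A day 3 wasp (replicate 1) whose name carries the number of control nest 28 is listed by the study under queen removal nest 38 and was kept there.

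In queens, LOC107074200 stood at a low level that was still well measured, with 352 to 2942 counts per library. Levels are given as CPM, a gene’s counts relative to the total of its library, after TMM scaling, which adjusts totals for composition. The lowest queen had 32.8 CPM, the median queen 78.2 CPM and the highest 293 CPM. Of the 26 queens, 18 were under 100 CPM and 3 were above 200 CPM. The mean was 92.9 ± 68.7 CPM (SD, n = 26).

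Control workers held the highest level of the 4 groups. Their lowest library had 321 CPM, the median 544 CPM and the highest 1905 CPM, with a mean of 650 ± 429 CPM (SD, n = 12). The highest value belonged to a wasp of 2 days of age (replicate 10, nest 56), and the next highest control worker had 843 CPM. Every control worker was above every queen, a separation in which control workers were higher that 2 of 10794 tested genes showed (0.0185%). As this difference helped to choose the gene, nothing is read from that share. The level was 7.00-fold higher in control workers than in queens, a log2 fold change of 2.81 (SE 0.32).

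In 10 nests both a control worker and her own queen were sequenced, and the worker was the higher in 10 of 10. That order was fixed beforehand, as every control worker was above every queen, so only the size of the ratio is described. The ratio of worker to queen ran from 3.50 in nest 49 (404 against 116 CPM) to 51 in nest 56 (1905 against 37.4 CPM), with a median of 7.78.

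**Figure D1:**
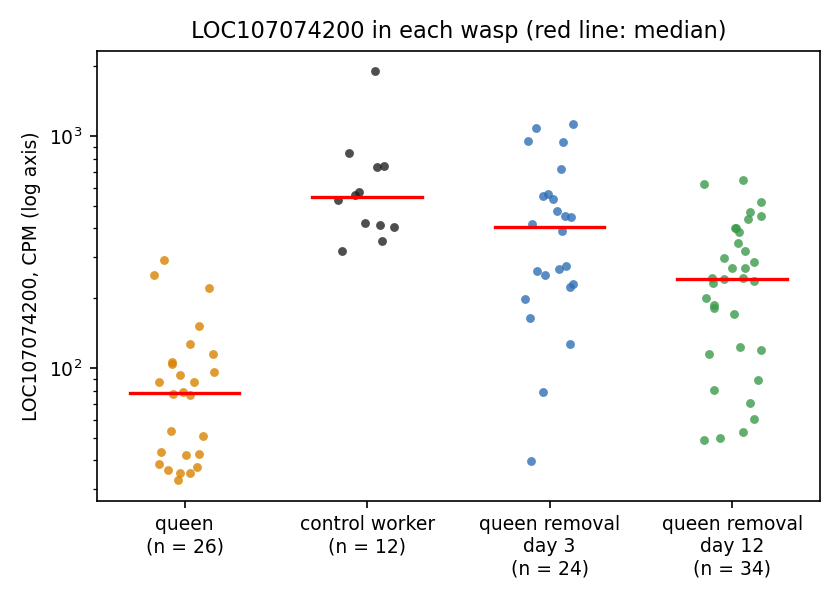
LOC107074200 in each of 96 libraries, as CPM on a log axis, by group; each point is 1 wasp and the red line is the group's median. Queens lie between 32.8 and 293 CPM and control workers between 321 and 1905 CPM, while queen removal individuals of both days spread over both ranges.

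Queen removal individuals covered the ranges of both other groups. The lowest had 39.7 CPM, the median 268 CPM and the highest 1125 CPM, with a mean of 339 ± 252 CPM (SD, n = 58). None of the 58 exceeded the highest control worker, and 49 were below the control worker median. Of the 58, 34 lay below the lowest control worker, 33 lay at or below the highest queen and 6 lay at or below the median queen. The log2 fold change against control workers was −0.93 (SE 0.29), and against queens it was 1.88 (SE 0.25). These groups share one fit, and each comparison uses libraries that another uses too.

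Day 3 individuals had a higher mean than day 12 individuals, with wide overlap. On day 3 it ran from 39.7 to 1125 CPM with a median of 404 CPM, and the mean was 448 ± 312 CPM (SD, n = 24). On day 12 it ran from 48.99 to 650 CPM with a median of 243 CPM, and the mean was 261 ± 164 CPM (SD, n = 34). On day 3, 7 of 24 wasps were above the control worker median, and on day 12, 2 of 34 were. Wasps below the lowest control worker made up 11 of 24 on day 3 and 23 of 34 on day 12. Against control workers, the log2 fold change was −0.54 (SE 0.34) at day 3 and −1.31 (SE 0.31) at day 12. In the study, control nests too were kept for 3 or 12 days after the sham treatment. Control workers were not split by that time here, so neither day had a control matched in time.

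The log2 fold change from day 3 to day 12 was −0.78 (SE 0.26). Both days were named in the choice of the gene, so this difference is a description too. Taken over nests, the mean log2 CPM was 8.56 ± 0.76 (SD, n = 8 nests) at day 3 and 7.79 ± 0.57 (SD, n = 10 nests) at day 12, a difference of −0.77. Wasps of day 12 were also older, and with age as a covariate the difference was −0.45 (SE 0.26).

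The spread within a nest varied from nest to nest. In 15 nests with several wasps, the highest was between 1.39 and 13.7 times the lowest (median 4.96), and in 5 of them it was under 3 times. In nest 69, sampled on day 3, 4 wasps ran from 79.1 to 1080 CPM. In nest 71 (day 3) 3 wasps ran from 39.7 to 452 CPM, and in nest 45 (day 12) 4 wasps ran from 50.1 to 520 CPM. The lowest wasps of these 3 nests were among the libraries with few photoreceptor transcripts described further on, and without such libraries the ranges were 2.28-fold, 2.76-fold and 1.93-fold, and at most 7.37-fold in any nest. Nest 47 (day 3) was the most even, with 5 wasps between 198 and 275 CPM and a median age of 26 days. Where the queen taken from the nest was also sequenced, 38 of 46 queen removal individuals, from 12 nests, were above that queen.

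Young workers held the highest levels. Among control workers, the 5 wasps of up to 9 days had 576 to 1905 CPM, the 5 wasps of 10 to 19 days had 321 to 560 CPM, and the remaining 2, of 20 days or more, had 412 and 422 CPM. The youngest control workers thus did not overlap with the older ones. Age was part of the choice of the gene, and genes with such a gap were not counted, so nothing is read from it. At day 3 the median was 830 CPM in 8 wasps of up to 9 days, 448 CPM in 7 wasps of 10 to 19 days and 252 CPM in 9 wasps of 20 days or more. The youngest day 3 wasps also included one at 79.1 CPM, from nest 69. At day 12 the median was 244 CPM in 17 wasps of 10 to 19 days and 243 CPM in 15 wasps of 20 days or more, and only 2 wasps were younger (60.4 and 621 CPM).

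Fitted per 10 days of age, the log2 level changed by −0.80 (SE 0.18) in control workers and by −0.73 (SE 0.18) in day 3 individuals. In day 12 individuals the slope was −0.14 (SE 0.31). Pearson's r of log2 CPM with age was −0.76 over 12 control workers, −0.48 over 24 day 3 individuals and 0.04 over 34 day 12 individuals. Age was named in the choice of the gene, so these are descriptions, and the difference between the slopes of the days was not tested. With age as a covariate, the difference of queen removal individuals from control workers was −0.55 (SE 0.29) in place of −0.93.

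**Figure D2:**
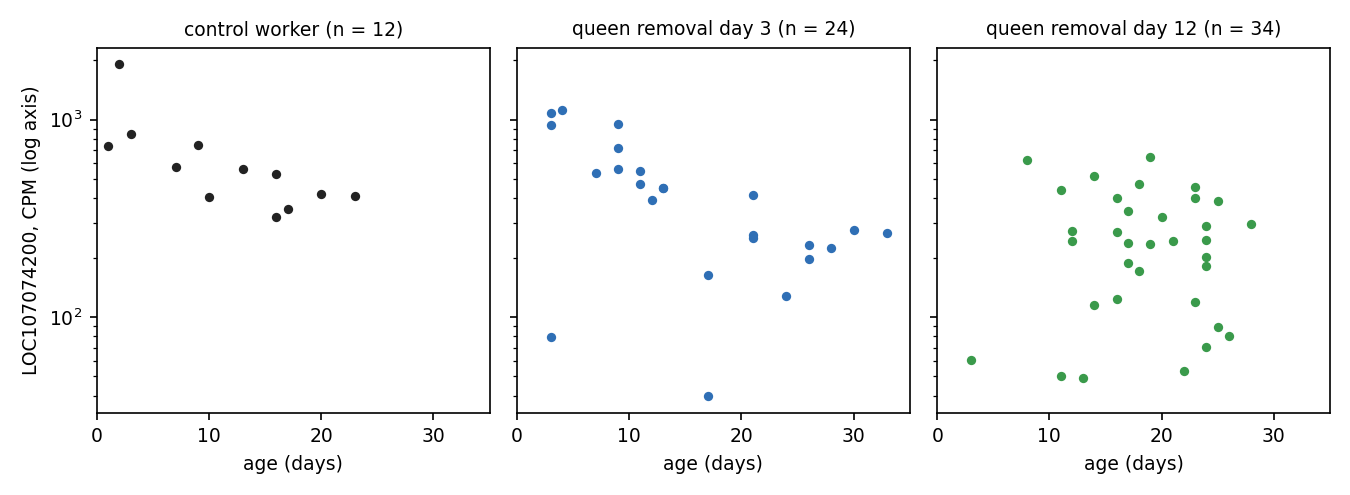
LOC107074200 (CPM, log axis) against age in days in control workers, day 3 and day 12 individuals; each point is 1 wasp. The 5 control workers of up to 9 days lie at 576 CPM or more, day 3 wasps of 20 days or more lie at 417 CPM or less, and day 12 wasps show no slope beyond its error.

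Queens did not differ detectably by the fate of their nest. Queens of control nests had 35.2 to 293 CPM (median 77.1, n = 14) and queens taken from queen removal nests had 32.8 to 251 CPM (median 86.0, n = 12), so the ranges overlapped almost fully. The log2 fold change was 0.20 (SE 0.36, edgeR adjusted p = 0.914), and a two-sided permutation test of log2 CPM gave p = 0.701. The SE leaves room for a difference of either sign. No gene of 10794 passed the test in this comparison (0%), with 868 at an unadjusted p under 0.05.

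Traits measured on the 58 queen removal individuals were related to the level next, with the day as a factor. The ovarian index is a size measure of the ovaries, and the Elo rating ranks wasps by the outcome of dominance contests. Queenness is the study's combined estimate of how queen-like both are. The study reports that queenness was correlated with age in these wasps, and age was named in the choice of the gene. The test with queenness is therefore not free of that choice, and those with its components, the ovarian index and the Elo rating, may not be either. Per SD of the trait, the log2 level changed by −0.17 (SE 0.14) with the ovarian index, by −0.12 (SE 0.14) with the Elo rating and by −0.26 (SE 0.14) with queenness. None passed edgeR's quasi-likelihood test (adjusted p = 0.749, 0.999 and 0.610), which 0.269%, 0.176% and 0.454% of all genes passed. Without a model, Pearson's r of log2 CPM with queenness was −0.20 and Spearman's rho was −0.13 (permutation p = 0.128 and 0.349, adjusted over 3 traits 0.385 and 0.524). These permutations took account of neither nest nor day, and nestmates are not independent. Leaving out the 2 wasps farthest from the median queenness gave r = −0.22. Within days, r with queenness was −0.20 over 24 wasps at day 3 and −0.11 over 34 at day 12, and the difference between the slopes of the days did not pass the test (edgeR adjusted p = 0.978), which 0.0834% of genes passed.

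The other proteasome genes showed smaller differences. LOC107074200 was chosen on its differences, so nothing is read from that contrast in size. Core particle, regulatory particle, assembly chaperone and activator lists held 38 genes besides LOC107074200, and all passed the filter on low counts. Between control workers and queens, 3 of the 38 were higher in control workers and 7 lower (edgeR, adjusted p under 0.05), beside 11.1% and 11.8% of all genes tested. Their log2 fold changes ran from −0.34 to 0.28 with a median of −0.03, against a median of 0.01 over all genes. No gene lengths were used, so levels are compared within a gene only.

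Of the chaperones that help to build the proteasome, Pomp, which matures the core particle, had a log2 fold change of 0.10 (SE 0.06), from 104 ± 14.4 CPM (SD, 26 queens) to 111 ± 13.9 CPM (SD, 12 control workers). PSMG1, a chaperone of the alpha ring in mammals, had −0.06 (SE 0.09). LOC107068286, annotated as similar to subunit 10, which is a chaperone of the ATPase base in mammals, had 0.07 (SE 0.05). None of these 3 passed the test. Rpt5, the ATPase that subunit 9 holds in yeast and mammals and which is named for that role, had 122 ± 15.2 CPM in the queens against 120 ± 15.5 CPM in the control workers, a log2 fold change of −0.02 (SE 0.06, edgeR adjusted p = 0.805).

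In the core particle, 1 of 7 alpha subunits was lower in control workers (LOC107073995, annotated as similar to alpha type-6, −0.34, SE 0.07). Of 7 beta subunits, Prosbeta3 was higher (0.28, SE 0.07), and Prosbeta2, a catalytic subunit, and LOC107064359, similar to beta type-2, were lower (−0.21 and −0.26). In the regulatory particle, 2 of 6 ATPases were lower, Rpt1 (−0.17, SE 0.05) and Rpt2 (−0.21, SE 0.05). Of 11 non-ATPase subunits, Rpn9 and Rpn12 were lower (−0.22 and −0.17) and Rpn7 was higher (0.11). Of 4 activators and inhibitors, LOC107067314, similar to activator subunit 4B, was higher (0.25, SE 0.06).

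Around the proteasome, 3 of 6 genes of ubiquitin and its activating enzyme were lower in control workers, where 11.8% of all genes were lower and 11.1% higher, among them RpL40, a ribosomal protein fused to ubiquitin (−0.26, SE 0.07). Npl4, which works with the p97 unfoldase, was lower (−0.19, SE 0.06) and was 1 of 3 p97 complex genes. The deubiquitinases Usp14 and Uch-L5, which bind the regulatory particle, were higher (0.17 and 0.21), and the shuttle factor Rad23 was lower (−0.17), with Ubqn not past the test. Of 8 heat shock proteins, 3 were lower and none higher, beside the same 11.8% and 11.1%. With lists of 3 to 8 genes, these counts are given as values only.

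After queen loss, none of the 38 proteasome genes passed the test against control workers, where 0.278% of all genes did. DESeq2 and limma also called 0, and 5 of the 38 had an unadjusted p under 0.05. Their log2 fold changes ran from −0.18 to 0.13, with a median of 0.05. LOC107067314 had the lowest value (−0.18, SE 0.05, edgeR adjusted p = 0.0790). Between day 3 and day 12, where 0.287% of all genes passed, none of the 38 passed in edgeR, DESeq2 or limma, with 4 at an unadjusted p under 0.05, and LOC107068286 had −0.13 (SE 0.04, edgeR adjusted p = 0.203). Slopes with queenness ran from −0.04 to 0.03 per SD, with 0 called and 0 at an unadjusted p under 0.05.

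**Figure D3:**
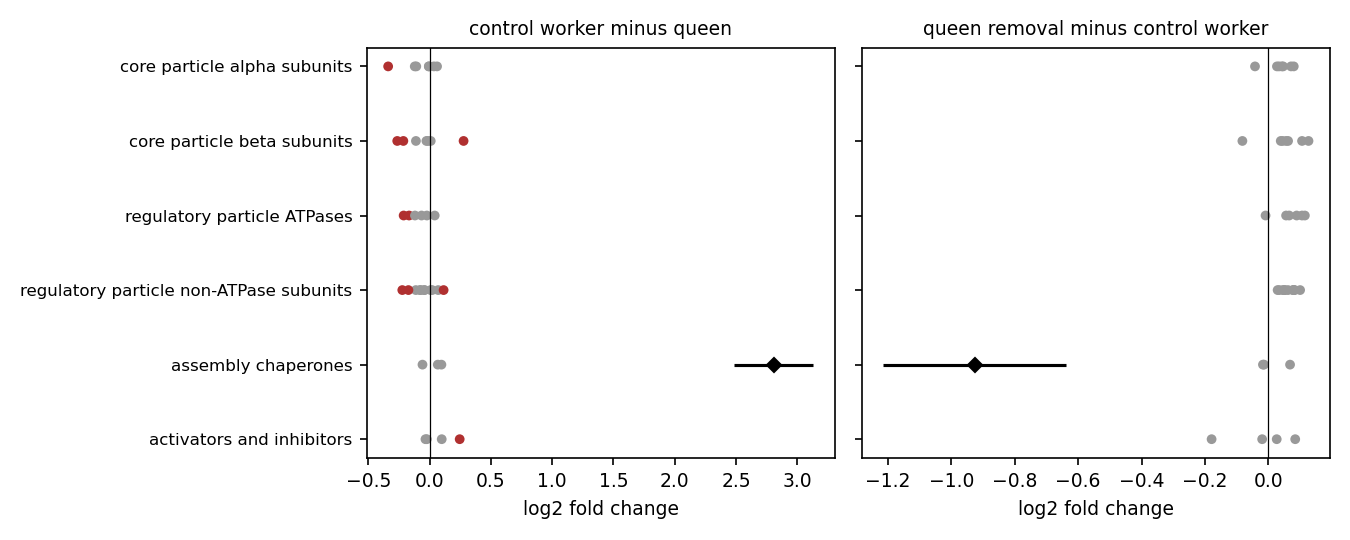
Log2 fold changes of the 38 other proteasome genes by role (points, red where the edgeR adjusted p is under 0.05) beside LOC107074200 (black diamond, bar: SE), for control workers minus queens and for queen removal individuals minus control workers. The 38 genes lie between −0.34 and 0.28 on the left and between −0.18 and 0.13 on the right, while LOC107074200, which was chosen on these differences, lies at 2.81 and −0.93.

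From wasp to wasp the other proteasome genes had correlations near zero with LOC107074200. With group means taken off, Pearson's r of log2 CPM over 96 libraries had a median of −0.11 over the alpha subunits, −0.07 over the beta subunits, −0.09 over the ATPases, −0.10 over the non-ATPase subunits and −0.02 over the 3 chaperones. Over all 9713 genes of mean CPM 1 or more the median was −0.0042. The 38 genes stayed between −0.19 and 0.06. These correlations share libraries and are given as descriptions.

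The genes most like LOC107074200 were of another kind. LOC107067009, an uncharacterized protein, was first with r = 0.88, and its r was 0.92 in queens, 0.89 in control workers, 0.84 at day 3 and 0.93 at day 12. It averaged 23.8 CPM among queens, 147 CPM among control workers and 85.5 CPM among queen removal individuals. LOC107073382, also uncharacterized, followed with 0.79 and had r of 0.73 or more in each of the 4 groups. Both were higher in control workers than in queens, as were 11.1% of all genes. The log2 fold changes were 2.63 (SE 0.47, edgeR adjusted p = 1.27e-05) and 2.22 (SE 0.39, edgeR adjusted p = 1.16e-05). For queen loss they were −0.77 (SE 0.42) and −0.49 (SE 0.35). Neither passed that test (edgeR adjusted p = 0.371 and 0.508), which 0.278% of all genes passed. This does not set them apart from LOC107074200, whose value of −0.93 (SE 0.29) is a description without a test.

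The next were LOC107074029 (0.76), rtp (0.73), LOC107068278 (0.72), trp (0.71), LOC107067758 (0.71) and Lop2 (0.71). In *Drosophila*, rtp (retinophilin) and trp, the light-activated cation channel, are photoreceptor genes, and Lop2 is a long-wavelength opsin. In control workers, r was negative for each of these 6 (−0.06 for rtp, −0.59 for LOC107074029), whereas in queens it was between 0.70 and 0.85. Per 10 days of age, the log2 slopes in control workers were 0.17 to 0.57 for these 6 genes and −0.80 for LOC107074200. The part of age in these negative values was not tested. The lowest r belonged to LOC107063701 (−0.40), LOC107064185, a tRNA-modifying enzyme (−0.37), LOC107074382 (−0.37) and LOC107066383 (−0.37).

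As a dissected brain can carry along parts of the eyes, muscle, fat body and glands, marker lists for these and for neurons and glia were set beside the gene. The photoreceptor list held 8 genes (Lop1, Lop2, Uvop and Rh5, which are opsins, trp, trpl, ninaC and Arr2), and its score was the mean of their z scores. With group means taken off, the score and LOC107074200 had r = 0.63 and rho = 0.52 over 96 libraries (permutation p = 1e-05, the floor of 100000 permutations, adjusted over 6 lists 6e-05), and r was 0.56 without the 2 libraries farthest from the median score. The 8 genes had r between 0.19 and 0.71 with LOC107074200. For neurons, glia, muscle, fat body and gland r lay between −0.11 and 0.06 (permutation p between 0.285 and 0.946). Wasps that share a nest are not independent in these tests.

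The relation differed in its value among groups. In queens r was 0.66 and rho 0.65 (n = 26, permutation p = 0.00018 and 0.00037, and r = 0.64 without the 2 farthest queens). At day 12 r was 0.73 and rho 0.60 (n = 34, permutation p = 1e-05 and 0.00024, and r = 0.63 without the 2 farthest). At day 3 r was 0.64 and rho 0.37 (n = 24, permutation p = 0.00112 and 0.0718), but r was 0.15 without the 2 farthest wasps, on which it rests. In control workers r was −0.48 and rho −0.55 (n = 12, permutation p = 0.121 and 0.0701, and r = −0.68 without the 2 farthest). In these 12 wasps the photoreceptor genes all had positive log2 slopes with age (0.28 to 1.44 per 10 days), against −0.80 for LOC107074200. The part of age in this negative r was not tested. Adjusted over the 4 groups, the p for r was 0.00036 in queens, 4e-05 at day 12, 0.00149 at day 3 and 0.121 in control workers. Whether the groups differ in r was not tested.

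Libraries with few photoreceptor transcripts were all low in LOC107074200. In 13 libraries the score was under −1, a limit set after the values were seen, and LOC107074200 lay between 35.2 and 79.1 CPM in them. They were 7 queens, 2 day 3 and 4 day 12 individuals, and no control worker. Without them, queens had 32.8 to 293 CPM (median 93.0, n = 19), day 3 individuals 128 to 1125 CPM (median 432, n = 22) and day 12 individuals 53.0 to 650 CPM (median 257, n = 30). The log2 fold change between control workers and queens was then 2.54 (SE 0.31), that between queen removal individuals and control workers −0.80 (SE 0.26), and that from day 3 to day 12 −0.75 (SE 0.23). Of the 6 queen removal wasps left out, 6 lay below the lowest control worker, as did 28 of the other 52.

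**Figure D4:**
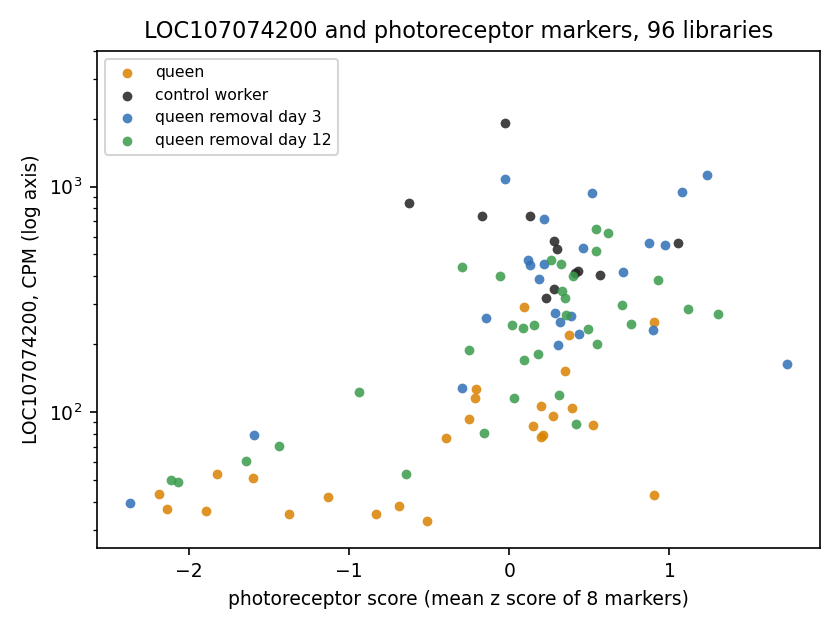
LOC107074200 (CPM, log axis) against the photoreceptor score (mean z score of 8 marker genes) in 96 libraries, coloured by group. The 13 libraries with a score under −1 lie at 79.1 CPM or less, and none of them is a control worker. Control workers lie above every queen over all libraries, so leaving libraries out could not change that order.

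The summed level of the 8 photoreceptor genes ran from 110 to 16840 CPM in queens (median 2331), from 1198 to 6770 CPM in control workers (median 3698), from 103 to 30846 CPM at day 3 (median 3674) and from 121 to 11589 CPM at day 12 (median 3347). Rh5 and trpl had no count in 3 libraries each, and the other 6 were counted in every library. Lop2, trp and ninaC, 3 of the 8 beside 11.1% of all genes, were higher in control workers than in queens (1.18, 1.08 and 0.73 on the log2 scale, edgeR adjusted p = 0.00491, 0.0152 and 0.0494). Lop1 (−1.66, SE 1.01), Rh5 (−2.18, SE 1.00) and trpl (−0.13, SE 0.61) went the other way without passing the test. Uvop (0.65, SE 0.37) and Arr2 (0.51, SE 0.54) did not pass either, so the list was split between the castes. None of the 8 passed the test for queen loss, which 0.278% of all genes passed, or between the days, which 0.287% passed. At such shares, no call among 8 genes says little. For queen loss, Rh5 had 2.84 (SE 0.99), Lop1 2.10 (SE 0.99), trpl 0.83 (SE 0.58) and Arr2 0.22 (SE 0.51). Lop2, trp, ninaC and Uvop lay between −0.26 and −0.07. With the score as a covariate, the log2 fold change of LOC107074200 was 2.54 (SE 0.27) between control workers and queens, −1.12 (SE 0.23) between queen removal individuals and control workers, and −0.61 (SE 0.21) from day 3 to day 12. In bulk tissue, fewer cells of a type and less RNA per cell cannot be told apart, and which cells hold the transcript was not tested.

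The same covariate moved the slope with queenness, a trait correlated with age and so not free of the choice of the gene. The ovarian index is a component of queenness and may not be free of that choice either. With the photoreceptor score in the fit, which was added once the values were known, LOC107074200 changed by −0.43 per SD of queenness (SE 0.10, edgeR adjusted p = 0.0354), past the threshold, and by −0.35 per SD of the ovarian index (SE 0.11, edgeR adjusted p = 0.268). Without the libraries of score under −1 the queenness slope was −0.35 (SE 0.12, edgeR adjusted p = 0.282), and with age as the covariate it was −0.08 (SE 0.15, edgeR adjusted p = 1.00). The photoreceptor genes themselves all had positive slopes, between 0.13 and 0.76 per SD of queenness. None of 8 was called, beside 0.454% of all genes, and at such a share no call among 8 genes says little. For trpl, Rh5 and Lop1 the unadjusted edgeR p was 0.0123, 0.0161 and 0.0419, where 991 of 10794 genes had one under 0.05.

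The other marker lists are set beside the shares of all genes that differed between these castes, 11.1% with the higher level in control workers and 11.8% with the higher level in queens. Of 7 muscle genes, 4 were lower in control workers, and the summed level ran from 2747 to 35398 CPM in queens and from 1481 to 13331 CPM in control workers. Of 6 fat body genes, 4 were higher and 1 lower (Vgn, vitellogenin), with summed levels of 1776 to 18710 CPM in queens and 1667 to 8814 CPM in control workers. Of 4 glial genes 1 was higher (Gs2), of 12 gland genes 3 were higher, and of 7 neuronal genes none passed. After queen loss 1 of 7 muscle genes was higher than in control workers and no other marker passed (0.278% of all genes), and between the days 3 of 6 fat body genes were lower at day 12 (0.287% of all genes). The part of these markers in the level of LOC107074200 was not tested beyond the correlations above.

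**Figure D5:**
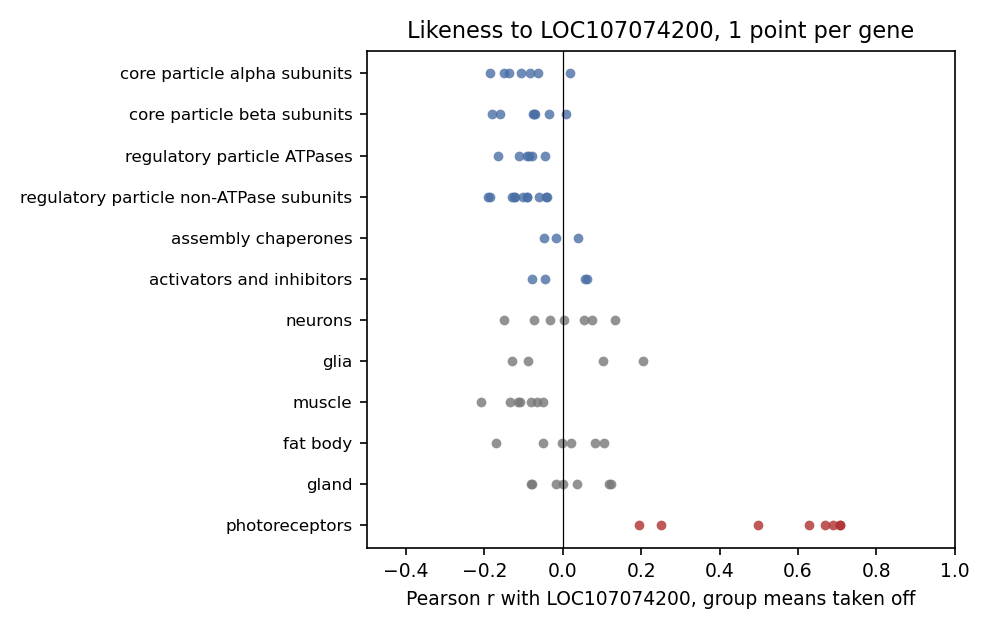
Pearson r of each gene with LOC107074200 (log2 CPM over 96 libraries, group means taken off), 1 point per gene, by list: proteasome lists in blue, other cell and tissue markers in grey, photoreceptor markers in red. Proteasome genes lie between −0.19 and 0.06 and the 8 photoreceptor genes between 0.19 and 0.71.

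In the reference gene table, whose assembly differs from that of the counts, LOC107074200 follows LOC107074028 and LOC149030971 and is followed by Ttc30, a gene of cilium transport, and LOC107074199, similar to a nucleolar protein. The spans of LOC107074200 and Ttc30 overlap there, and since the sources do not say whether counting used strand, reads in the overlap could belong to either. Ttc30 averaged 7.12 ± 1.56 CPM (SD, 26 queens) and 9.70 ± 2.30 CPM (SD, 12 control workers), with no library above 14.9 CPM. LOC107074199 stood at 16.3 ± 4.51 and 18.1 ± 5.78 CPM in the same groups, and LOC107074028 did not exceed 3.37 CPM in any library. None of these 3 neighbours reached the lowest level of LOC107074200 in any group.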

How the data were processed

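Raw counts were deposited for every gene and library. The authors made them by removing ribosomal reads with SortMeRNA, trimming with Trimmomatic, aligning with STAR 2.7 and counting with StringTie2. The 11335 table entries included 194 repeated IDs, which were summed to 11140 genes. An entry without a gene name (0.0216% to 0.0706% of counts) was left out. The filter kept 10794 genes whose counts in some group added up to over 20. The 4 groups of the labels shared one edgeR 4.0.16 fit in R 4.3.3 (TMM, quasi-likelihood test, Benjamini-Hochberg adjustment over all genes, threshold 0.05). Log2 CPM used a prior count of 2. As alternatives, DESeq2 1.42.0 and voom in limma 3.58.1, the latter with a random nest effect, were run. Traits, ages and nests came from the labels and the study's source data.

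Single values were tested over 100000 permutations, in scipy 1.17.1 for the comparison of queens and by shuffling in numpy 2.4.6 for the correlations. For the marker lists, wasps were shuffled within their group. Counting depth was 352 or more counts of LOC107074200 in every library, so spread between wasps and not counting error limits precision. The 58 queen removal individuals came from 18 nests, so wasps that share a nest are not independent. Apart from the limma fits with a nest effect, the p-values over wasps take no account of this.

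The gene and all lists were chosen with earlier results of these data known. The genes named are, by role, those of smallest p in each proteasome list, all assembly chaperones, the 8 highest and 4 lowest in correlation with LOC107074200, and 2 neighbours on each side. Rpt5 and single markers fall outside this rule and were named after their values were seen. Of 11140 IDs, 10144 had an entry in the reference gene table (assembly Pdom_raw_medaka), 4065 a symbol and 4395 a product name in the study's tables. Neither coordinates nor sequences are given.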

Additional observations from a re-analysis of the deposited data

How the results depend on the processing

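Over the alternatives tried, the log2 fold changes of LOC107074200 between control workers and queens, between queen removal individuals and control workers and between the days kept their sign. Leaving out each of 30 nests in turn gave 2.49 to 2.91 for the former and −0.997 to −0.65 for the latter, with nest 56 giving the smallest size in both. Without control worker replicate 10 the latter was −0.65 (SE 0.30). The difference between the days ranged from −0.95 (without nest 47) to −0.65 (without nest 51). Slopes without each of 18 nests ranged from −0.24 to −0.12 for the ovarian index, from −0.16 to −0.10 for the Elo rating and from −0.33 to −0.20 for queenness. The queenness slope passed the threshold under 1 of 10 alternatives, the photoreceptor covariate added after the data were seen (−0.43); the cause was not tested.

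Of the 38 other proteasome genes, the 10 called between control workers and queens became 0 against a 1.5-fold threshold. With only the 12 queens of queen removal nests they became 5 (LOC107067314, LOC107073995, Prosbeta3, Rpt2 and Rpn9). The shares of all genes called under each setting are not given. The counts therefore do not show whether these genes changed apart from the rest. Leaving out a nest gave 9 to 12. Against control workers, 1 queen removal call (LOC107067314) appeared without the libraries of photoreceptor score under −1, and leaving out a nest gave 0 to 1 (nest 45, LOC107067314). Between the days leaving out a nest gave 0 to 1 (nest 47, LOC107068286). The cause of these changes was not tested.

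The labels number samples within each group. Same-numbered samples did not deviate together (mean correlation of deviations from −0.01 to 0.11 over 12 numbers), so the numbers were not taken as pairs. With the number as a replicate block, LOC107074200 had log2 fold changes of 2.94 (SE 0.39), −1.20 (SE 0.34) and, between the days, −0.88 (SE 0.30), and 8, 0 and 0 of the 38 proteasome genes were called in the 3 comparisons. The shares of all genes called with this block are not given either.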
